A study of Mus musculus with 8 samples.

Results

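The potassium channel genes Kcnk1, Kcnk2, Kcnk3, Kcnk4, Kcnk9, Kcnk10 and Kcnk12 were examined in the mouse hippocampus after repeated ketamine anesthesia. They were chosen by name, as channels of the tandem-pore (K2P) family, with earlier results of these data known. All 7 were found among the 20802 genes of the deposited table and among the 18865 genes that were tested. Hippocampal RNA was sequenced from 8 male C57BL/6 mice, an inbred strain, and no genetic change is named for either group. Mice in the Anesthesia group (n = 4) were given ketamine at 35 mg per kg by intraperitoneal injection on each of 5 days, from PND16 to PND20. Mice in the Control group (n = 4) were given saline on the same days, although their sample titles call them untreated. Both groups were recovered in fresh warm bedding after each injection and were sampled at P28. The comparison asks whether hippocampal transcripts differed 1 week after the last injection.

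K2P channels carry the potassium leak current that sets the resting membrane potential of neurons and glia. Each subunit holds a pair of pore loops and pairs with another subunit to form a single pore. Kcnk3 (TASK-1) and Kcnk9 (TASK-3) encode acid-sensitive channels that volatile anesthetics open and that Gq-coupled receptors close. Kcnk2 (TREK-1), Kcnk10 (TREK-2) and Kcnk4 (TRAAK) encode channels opened by membrane stretch and by polyunsaturated lipids. Kcnk1 (TWIK-1) encodes a channel with a weak current that contributes to the passive conductance of astrocytes. Kcnk12 (THIK-2) encodes a subunit that is largely held inside the cell and that can pair with Kcnk13 (THIK-1). Ketamine itself acts mainly as a blocker of NMDA receptors.

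The coding sequence of the selectivity filter, the part of the pore loop that lets potassium through, is shown for the first pore of each of the 7 genes, because it is the shared feature of the family and shows how far the transcripts differ in sequence. The 15 bases in capitals are the filter codons, and each run of 30 bases is written 5′ to 3′ on the coding strand, from GENCODE M21 transcripts on GRCm38.
Kcnk1: ctctccACCACAGGCTATGGCcacacggtg
Kcnk2: atcacaACCATAGGATTTGGAaacatctcc
Kcnk3: atcaccACCATCGGCTATGGTcatgcggcg
Kcnk4: atcactACCATCGGCTATGGCaatatagtc
Kcnk9: atcacaACTATCGGATATGGAcatgctgca
Kcnk10: atcacaACCATAGGGTATGGGaatattgct
Kcnk12: gtgtcgACCATAGGTTTCGGCatgacaaca
In all 7 genes this window was split by an intron after base 13, inside the filter codons. In Kcnk9 it lay on the minus strand at chr15:72545997-72546009 in exon 1 and chr15:72513028-72513044 in exon 2. In Kcnk12 it lay on the minus strand at chr17:87797064-87797076 in exon 1 and chr17:87746825-87746841 in exon 2. A second filter was found in each gene, always within 1 exon. It is shown for Kcnk9 and Kcnk12, whose levels are compared across mice below.
Kcnk9: ttgactACTATAGGGTTCGGCgattttgtg
Kcnk12: ttcagcACCATCGGCTTCGGGgacctggtg
These windows lie at chr15:72512710-72512739 and chr17:87746444-87746473, both on the minus strand. In the first pore the acid-sensitive pair Kcnk3 and Kcnk9 differed at 6 of 30 bases, while Kcnk9 and Kcnk12 differed at 16. Over whole transcripts, at most 1 stretch of 31 bases was shared between any of the 7 genes, so that reads could rarely be split among them. Sequence shared with other genes was larger. Of the 31-base stretches of Kcnk4, 15.1% were also found in another gene, most of them in Catsperz, which overlaps it by 587 exonic bases on the same strand. The corresponding share was 10.6% in Kcnk2, 6.67% in Kcnk1 and 5.97% in Kcnk3, mostly with an overlapping gene on the opposite strand (A430027H14Rik, Gm45875 and Gm9899). It was 0.42% in Kcnk10, 0.23% in Kcnk9 and 0 in Kcnk12. The values of Kcnk4 and, where strand was not used, those of Kcnk1, Kcnk2 and Kcnk3 are therefore uncertain to that extent.

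The deposited values are counts that the authors normalized, with totals of 18702634 to 19231119 per mouse. The step between low values placed the reads behind them at about 15400000 to 22100000 per mouse. No gene in the whole table passed the test: in limma, 0 of 18865 genes (0.0%) had an adjusted p under 0.05. An unadjusted p under 0.05 was found in 1513 (8.02%), and limma voom gave 0 and 1510. The paper's DESeq2 test of these mice, a different test not rerun here, did call some genes at an adjusted p under 0.05. Markers of CA1 pyramidal neurons and dentate granule neurons were present in every mouse, with Wfs1 between 769 and 1242 normalized counts and Prox1 between 957 and 2397. Anesthesia replicate 3 stood apart. A list of 8 neocortical neuron genes, chosen after the data were seen, had a mean level of 1.21 in this mouse on the log2 scale relative to the Control mean, against -0.38 to 0.34 in the other 7 mice. All 8 listed neocortical genes were found, none was at 0 in any mouse, and their summed level was 2069 to 6323 normalized counts among Anesthesia mice and 1965 to 3330 among Control mice. Each listed gene except Fezf2 was highest in Anesthesia replicate 3. Fezf2 had 214 normalized counts in this mouse and 180 to 335 in the other 7 mice, and Rorb stood out little (634 against 485 to 577). The level of 7 dentate granule genes in this mouse was -0.45, and in Anesthesia replicate 2 it was 0.58. Control replicate 4, at -0.42, and Control replicate 1, at 0.41, came close to these values. Not every dentate gene followed. Pdzd2 had 1431 normalized counts in Anesthesia replicate 3, against 948 to 1429 in the Control mice. Calb1 had 2057 in Anesthesia replicate 2, inside the Control range of 1673 to 2536. The 7 dentate genes were all found above 0, and they summed to 6206 to 12035 among Anesthesia mice and 6224 to 10688 among Control mice. The choroid plexus gene Ttr ranged from 145 to 61582 normalized counts, with at least 24368 in Anesthesia replicate 1 and Control replicates 2, 3 and 4, and at most 2679 in the other mice. In whole tissue of this kind, fewer cells of a type and less RNA per cell cannot be told apart.

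No K2P transcript passed the test of a difference between the groups. Of the 7 genes, 0 had an unadjusted p under 0.05 from limma (8.02% of all genes tested, 4.75% higher and 3.27% lower in the Anesthesia group), 0 had groups that did not overlap (5.04% of all genes tested), and 5 had a higher fitted mean in the Anesthesia group (49.2% of all genes tested). A fitted difference of at least 0.2 on the log2 scale was seen in 3 of the 7, Kcnk4, Kcnk9 and Kcnk12, and in 28.1% of all genes tested. Their log2 fold changes, Anesthesia minus Control, lay between -0.06 and 0.34 with a median of 0.13, against a median of -0.0036 over all genes tested. All adjusted p-values from limma were between 0.652 and 0.922. When Anesthesia replicate 3 was left out, the median of the 7 genes was 0.087, and it was 0.22 when Anesthesia replicate 2 was left out. The 7 genes were chosen with earlier results of these data known, so their median is a description only. The 3 other K2P genes in the table had a median log2 fold change of -0.07.

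**Figure D1:**
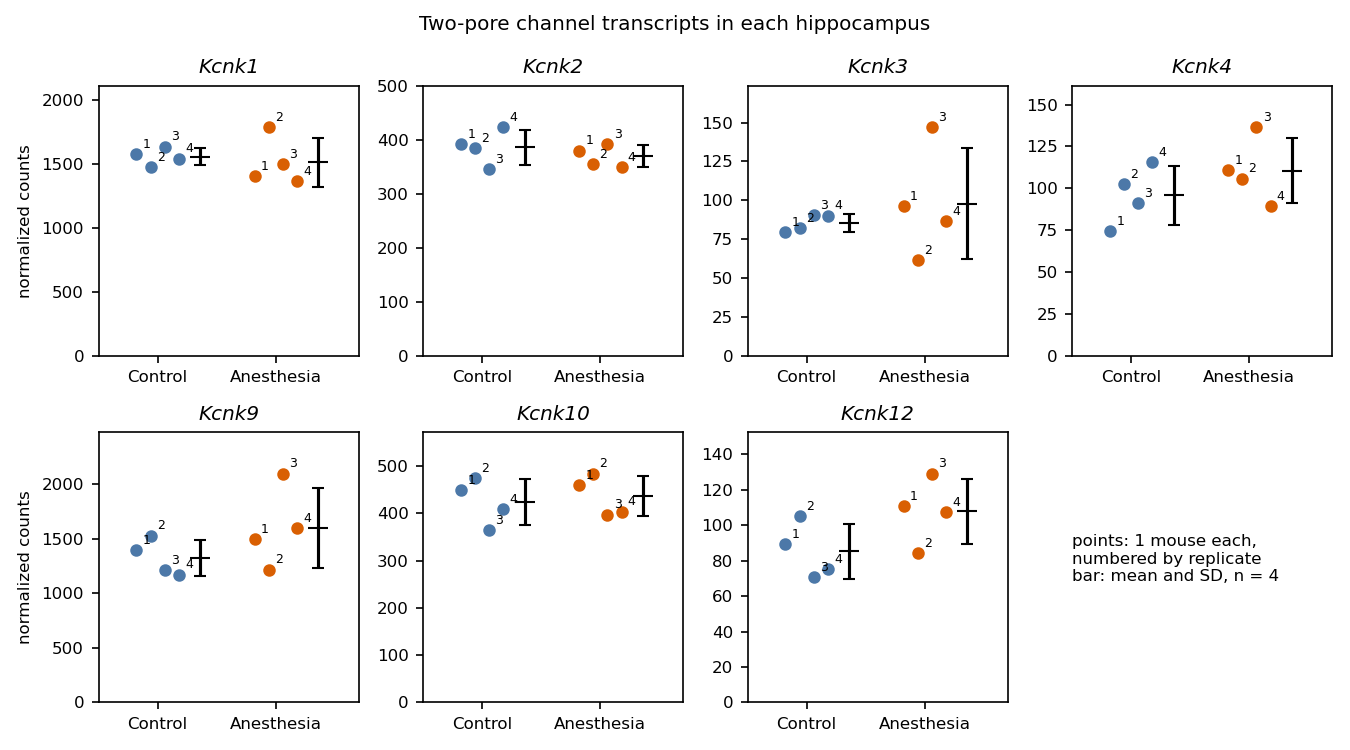
Normalized counts of the 7 genes in each mouse (points, numbered by replicate) in the Control and Anesthesia groups, with the mean and SD of 4 mice as a bar. Values of the groups overlap in all 7 panels, and Anesthesia replicate 3 is the highest point for Kcnk3, Kcnk4, Kcnk9 and Kcnk12.

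Among the acid-sensitive channels, Kcnk9 (ENSMUSG00000036760, chromosome 15, 72501089 to 72546340, minus strand) had 1493, 1218, 2097 and 1594 normalized counts in Anesthesia replicates 1 to 4, and 1393, 1529, 1214 and 1172 in Control replicates 1 to 4. Anesthesia replicates 3 and 4 were above all Control mice, while Anesthesia replicate 2 lay near the lowest Control mice, so the groups overlapped. The means were 1601 ± 367 and 1327 ± 165 (SD, n = 4 each), and the fitted log2 difference was 0.25 (standard error (SE) 0.15, 95% confidence interval (CI) -0.08 to 0.58, limma adjusted p = 0.673). Kcnk9 depended in part on Anesthesia replicate 3, the mouse with the highest neocortical level: without it the log2 fold change was 0.11. Without Anesthesia replicate 2 the log2 fold change of Kcnk9 was 0.37.

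Kcnk3 (ENSMUSG00000049265, chromosome 5, 30588170 to 30625271, plus strand) had 96.5, 61.7, 147 and 86.5 normalized counts in the 4 Anesthesia mice and 79.4, 82.0, 90.3 and 90.2 in the 4 Control mice. The Control mice lay close together, while the Anesthesia group held both the highest and the lowest mouse. The means were 97.9 ± 35.9 and 85.5 ± 5.62 (SD, n = 4 each), with a log2 fold change of 0.13 (SE 0.23, 95% CI -0.37 to 0.63, limma adjusted p = 0.885). The coefficient of variation was 36.6% among Anesthesia mice and 6.58% among Control mice, where counting error alone would give about 10.4%. The log2 fold change was 0.32 without Anesthesia replicate 2 and -0.089 without Anesthesia replicate 3. That mouse had the highest neocortical and the lowest dentate level of all 8, and Anesthesia replicate 2, with the lowest Kcnk3, had the highest dentate level; the part of tissue composition in the values of Kcnk3 was not tested beyond these levels and the covariate fits.

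Of the stretch- and lipid-sensitive channels, Kcnk4 (ENSMUSG00000024957, chromosome 19, 6923966 to 6934515, minus strand) had 111, 105.8, 136.5 and 89.2 normalized counts in the Anesthesia mice and 74.4, 102.5, 90.9 and 115.6 in the Control mice. Only Anesthesia replicate 3 lay above all Control mice, and the lowest value was that of Control replicate 1. The log2 fold change of Kcnk4 was 0.21 (SE 0.18, 95% CI -0.18 to 0.59, limma adjusted p = 0.756), with 0.10 without Anesthesia replicate 3, 0.092 without Control replicate 1 and at most 0.30 without any other mouse. Kcnk2 (ENSMUSG00000037624, chromosome 1, 189207930 to 189402273, minus strand) had 381, 356, 393 and 350 normalized counts in the Anesthesia mice and 393, 386, 346 and 424 in the Control mice. All 4 Anesthesia mice lay inside the range of the Control mice. Its log2 fold change was -0.06 (SE 0.09, 95% CI -0.26 to 0.13, limma adjusted p = 0.847). Kcnk10 (ENSMUSG00000033854, chromosome 12, 98429437 to 98578310, minus strand) had 460, 484, 398 and 404 normalized counts in the Anesthesia mice and 449, 475, 364 and 409 in the Control mice. The groups covered nearly the same range, and the log2 fold change was 0.04 (SE 0.11, 95% CI -0.19 to 0.28, limma adjusted p = 0.922).

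Kcnk1 (ENSMUSG00000033998, chromosome 8, 125995170 to 126030685, plus strand) had 1404, 1787, 1496 and 1367 normalized counts in the Anesthesia mice and 1578, 1476, 1636 and 1542 in the Control mice. Anesthesia replicate 2 was the highest and Anesthesia replicates 1 and 4 the lowest of all 8 mice, so the Anesthesia group lay on both sides of the Control group. The means were 1514 ± 190 and 1558 ± 67.0 (SD, n = 4 each), with a log2 fold change of -0.05 (SE 0.09, 95% CI -0.24 to 0.14, limma adjusted p = 0.884). It was -0.13 without Anesthesia replicate 2 and -0.0025 without Anesthesia replicate 4. The summed level of 10 astrocyte genes, all found, was 113303 to 126446 normalized counts among Anesthesia mice and 110943 to 117644 among Control mice, with a median log2 fold change of -0.07. The sum is carried by Slc1a2, the main glutamate transporter, with 75386 to 87619 among Anesthesia mice and 70246 to 76406 among Control mice. Its limma unadjusted p was under 0.05, as in 8.02% of all genes tested, and its limma adjusted p was 0.620. Of the other genes, 2 had a fitted value above 0 and 7 below 0. Groups did not overlap in 2 of the 10 genes (5.04% of all genes tested, 2.23% lower in the Anesthesia group). These were Slc1a3 and Gja1, named after their values were seen, and both were lower in every Anesthesia mouse than in any Control mouse. The part of astrocytes in the values of Kcnk1 was not tested. The intervals of Kcnk1, Kcnk2 and Kcnk10 were the narrowest of the 7 genes. On the linear scale they ran from 0.848 to 1.102 times the Control level for Kcnk1, from 0.838 to 1.09 for Kcnk2 and from 0.877 to 1.21 for Kcnk10.

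Kcnk12 (ENSMUSG00000050138, chromosome 17, 87745801 to 87797994, minus strand) had the largest fitted difference of the 7 genes. It had 111, 84.3, 129 and 107 normalized counts in the Anesthesia mice and 89.5, 105.3, 70.7 and 75.4 in the Control mice. Anesthesia replicates 1, 3 and 4 lay above all Control mice, and Anesthesia replicate 2 lay below Control replicates 1 and 2. The means were 107.8 ± 18.4 and 85.2 ± 15.6 (SD, n = 4 each), with a log2 fold change of 0.34 (SE 0.17, 95% CI -0.05 to 0.72, limma adjusted p = 0.652). The value was 0.25 without Anesthesia replicate 3 and 0.45 without Anesthesia replicate 2. Counting error alone would give a coefficient of variation of about 10.1% at this level, compared with 17.1% and 18.3% among the mice of the 2 groups.

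**Figure D2:**
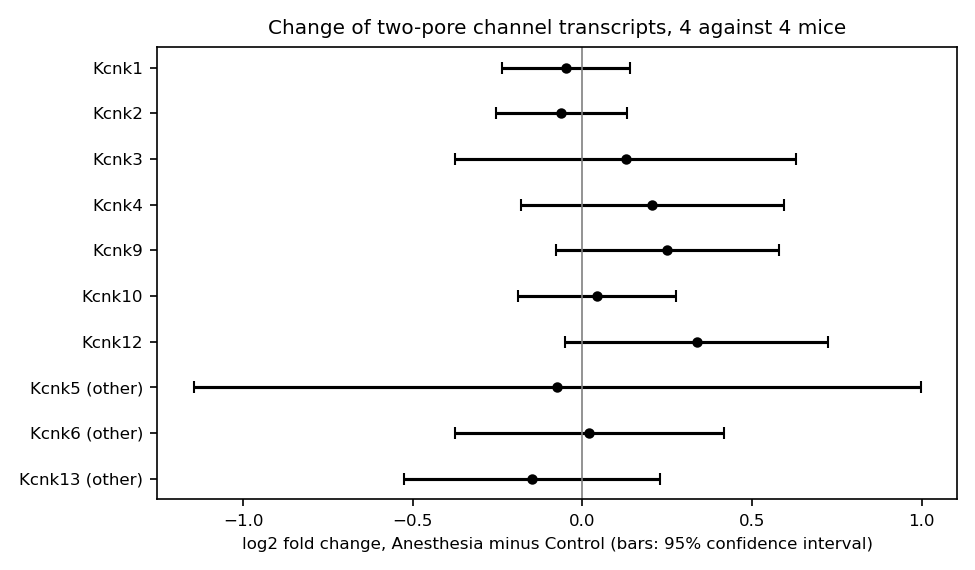
Log2 fold change of each K2P gene, Anesthesia minus Control, with its 95% confidence interval from limma (4 against 4 mice). The intervals of all 7 genes and of the 3 other family genes include 0, with Kcnk12 at 0.34 and Kcnk2 at -0.06 as the extremes of the 7.

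Of 7 other K2P genes listed, 3 were found in the table, and Kcnk7, Kcnk15, Kcnk16 and Kcnk18 were not analysed here. Kcnk13, the partner of Kcnk12 that is best known from microglia, had 71.9, 92.5, 95.3 and 91.3 normalized counts in the Anesthesia mice and 81.1, 98.3, 128 and 86.5 in the Control mice. Its log2 fold change was -0.15 (SE 0.17, limma adjusted p = 0.816), and the groups overlapped. Kcnk6, which encodes a relative of TWIK-1, had 71.7 ± 16.9 and 69.5 ± 5.83 normalized counts (SD, n = 4 each) and a log2 fold change of 0.02 (SE 0.18, limma adjusted p = 0.980). Kcnk5, an acid-sensitive channel best known from epithelia, was close to the lowest level tested, with 7.98 to 36.2 normalized counts over the 8 mice and a log2 fold change of -0.07 (SE 0.48, limma adjusted p = 0.973).

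To compare levels between genes, the normalized counts were divided by the length of the longest coding transcript of each gene. Kcnk1 was the most abundant K2P transcript in the hippocampus on this scale, with 697 ± 30.0 normalized counts per kb in the Control group (SD, n = 4), and its lowest mouse (612) lay above the highest mouse of any other gene (170). Kcnk2 (108 ± 9.02) and Kcnk9 (108 ± 13.4) followed and could not be ordered, since Kcnk2 was the higher one in 2 of 8 mice. Kcnk9 was above Kcnk10 (56.9 ± 6.47) in 8 of 8 mice, with no overlap. This order depended on the length: with the mean length of the coding transcripts the order turned, and the Control share of Kcnk10 was 7.72% and that of Kcnk9 7.50%. Kcnk10, Kcnk4 (54.4 ± 9.92) and Kcnk12 (43.2 ± 7.90) overlapped with their neighbours in this order. Kcnk3 had the lowest level, 22.4 ± 1.48 normalized counts per kb, and was below Kcnk12 in 8 of 8 mice although their ranges overlapped. With the exon union as the length, Kcnk3 and Kcnk4 both had a Control share of 2.11%, so that the last place was shared. Levels per kb rest on the transcript that is taken as the length, and Kcnk9 has a long annotated transcript (12.3 kb, against 1.76 kb for Kcnk4).

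As a share of the summed level per kb of the 7 genes, Kcnk1 made up 63.9% ± 2.75 among Control mice and 60.8% ± 4.79 among Anesthesia mice (SD, n = 4 each). Its share was 64.3%, 60.6%, 67.3% and 63.5% in Control replicates 1 to 4 and 59.1%, 67.6%, 56.5% and 59.9% in Anesthesia replicates 1 to 4. The Anesthesia group held both the highest and the lowest mouse. Kcnk9 made up 9.89% ± 1.21 and 11.7% ± 2.54, and Kcnk12 3.96% ± 0.718 and 4.94% ± 0.888, in the Control and Anesthesia groups. These shares do not depend on how the libraries were scaled. The shares were compared by a two-sided exact permutation test over the 8 mice. With so few mice, its p cannot be small enough for a single share alone to reach an adjusted p under 0.05. It therefore cannot show that a share did not differ. None of the 7 shares passed: the smallest exact permutation p was 0.143, for Kcnk12, and the adjusted p-values over the 7 shares were 0.48 to 0.914. These values depended on Anesthesia replicate 2: without it the difference in share was -5.43 percentage points for Kcnk1 (-3.15 with all mice), 2.94 for Kcnk9 (1.83), 1.42 for Kcnk12 (0.975) and 0.564 for Kcnk3 (0.251), each with an adjusted exact permutation p of 0.1. Without Anesthesia replicate 3 they were -1.72, 0.939, 0.779 and -0.066, with adjusted exact permutation p of 0.72 to 0.914. With the exon union of each gene as the length, the Control share of Kcnk1 was 68.5% and that of Kcnk4 was 2.11% in place of 4.99%.

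**Figure D3:**
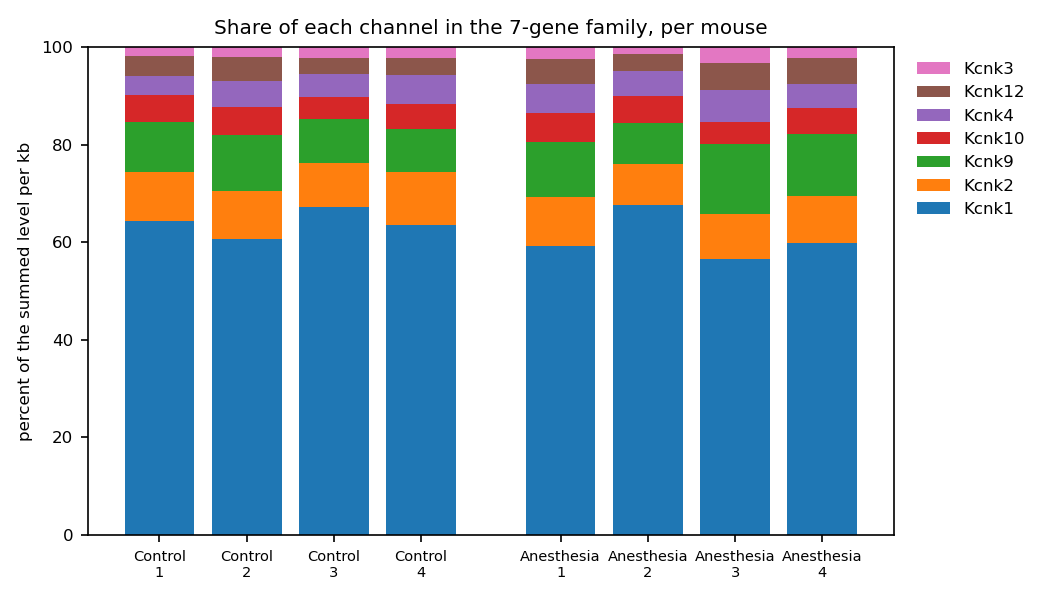
Share of each gene, in percent, in the summed level per kb of the 7 K2P genes in each mouse. Kcnk1 takes between 56.5% and 67.6% in every mouse, and Kcnk3 at the top of each bar takes between 1.37% and 3.26%.

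Kcnk9 and Kcnk12 moved together from mouse to mouse. Across the 8 mice, Pearson's r of their log2 levels was 0.93 (exact permutation p = 0.000471, adjusted p = 0.0165 over 35 relations), and Spearman's rho was 0.905 (exact permutation p = 0.00456, adjusted p = 0.160). The same r was 0.92 without Anesthesia replicate 3 and Control replicate 4, the mice farthest from the median of Kcnk9, and 0.92 on deviations from the group means. Leaving out single mice gave 0.92 to 0.96. The ratio of Kcnk9 to Kcnk12 stayed between 13.5 and 17.2 in all 8 mice, while Kcnk9 ranged from 1172 to 2097 normalized counts. The mice with high and with low Ttr were 4 each, too few for an r of their own. Some other genes followed a similar course. With Kcnk9, 53 of 18864 genes (0.281%) had an r at least as high as that of Kcnk12, which is counted among them. With Kcnk12, 20 genes (0.106%) had an r at least as high as that of Kcnk9, which is likewise counted.

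The 35 relations were the 21 pairs among the 7 genes and each gene against the dentate and neocortical levels, and no other one had an adjusted p under 0.05. Among the closest were those of Kcnk3. Its r was 0.85 against the neocortical level (exact permutation p = 0.0168, adjusted p = 0.147, rho 0.524 with exact permutation p = 0.197). Against the dentate level it was -0.81 (exact permutation p = 0.00960, adjusted p = 0.147, rho -0.786 with exact permutation p = 0.0279). Without the mice farthest from the median of each level, these were 0.88 and -0.66. Without Anesthesia replicate 3 alone they were 0.53 and -0.80. Kcnk9 had r of 0.83 against the neocortical level (exact permutation p = 0.0132, adjusted p = 0.147, rho 0.476 with exact permutation p = 0.243). This r rested on Anesthesia replicate 3 and Control replicate 3: without them it was 0.37. Kcnk12 had r of 0.76 against the same level (exact permutation p = 0.0229, adjusted p = 0.160, rho 0.619 with exact permutation p = 0.115). Without the same mice it was 0.34. Kcnk3 and Kcnk9, both acid-sensitive, had r of 0.75 (exact permutation p = 0.0521, adjusted p = 0.261), and -0.23 without Anesthesia replicates 2 and 3.

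**Figure D4:**
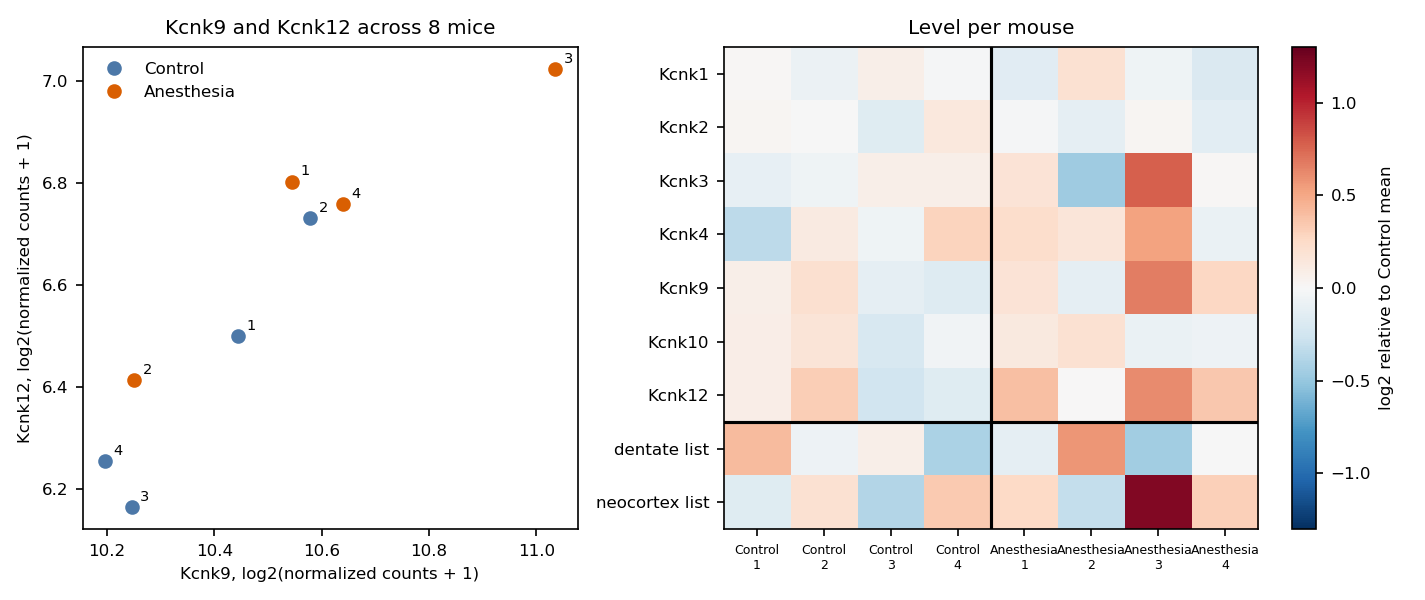
Left, log2(normalized counts + 1) of Kcnk9 against Kcnk12 in the 8 mice, numbered by replicate. Right, the log2 level of each gene and of the dentate and neocortical lists in each mouse relative to the Control mean (colour scale), where Anesthesia replicate 3 has the highest neocortical level, 1.21, together with the highest Kcnk3, Kcnk4, Kcnk9 and Kcnk12.

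The genes whose levels followed each channel most closely over the 8 mice were taken from 12248 genes or more with a mean of at least 100 normalized counts, as a description with no test. For Kcnk9 they were Pcdh15 (r = 0.97) and Celf4 (r = 0.96), and for Kcnk12 they were Nyap1 (r = 0.98) and Rnaseh1 (r = 0.97). For Kcnk3 they were Sestd1 (r = 0.99) and Pcdh11x (r = 0.97), and for Kcnk1 they were Sertad4 (r = 0.98) and Fam19a1 (r = 0.96). Kcnk2 was followed by Ints11 and Vwa1, Kcnk4 by Ncf1 and Ing2, and Kcnk10 by Wdr83os and Zfp638, with r between 0.96 and 0.97. Other genes also reached high values over the 8 mice. Among the 12248 or more genes compared, r was at least 0.9 in 127 for Kcnk9, 67 for Kcnk3, 47 for Kcnk12 and 10 to 19 for the other 4.

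The proteins that bind K2P channels and the receptors that close them were examined next. Of 16 channel partners, among them the 14-3-3 proteins that carry TASK channels to the cell surface, 0 had an adjusted p under 0.05, 1 had an unadjusted p under 0.05 (8.02% of all genes tested), 3 had groups that did not overlap (5.04% of all genes tested), and the median log2 fold change was -1.6e-05. The 3 genes were Stx8 and, named after their values were seen, Copb1 and Ywhae, which had lower values in the Anesthesia mice. Stx8, a syntaxin of endosomes that takes part in the traffic of TASK-1, had 366, 383, 362 and 359 normalized counts in the Anesthesia mice and 297, 321, 318 and 312 in the Control mice. The lowest Anesthesia mouse (359) was above the highest Control mouse (321), as in 2.81% of all genes tested (2.23% had the opposite order). Its log2 fold change was 0.24 (SE 0.07, 95% CI 0.07 to 0.40), which did not pass the threshold (limma adjusted p = 0.620). Leaving out single mice kept it at 0.21 to 0.25.

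Of 16 genes for Gq-coupled receptors, Gq proteins and phospholipase C beta, 0 had an adjusted p under 0.05, 1 had an unadjusted p under 0.05 (8.02% of all genes tested), 1 had groups that did not overlap (5.04% of all genes tested), and the median log2 fold change was 0.03. These counts are near the shares over all genes. This gene was Chrm1, the main muscarinic receptor of hippocampal pyramidal neurons, which closes TASK channels through Gq. It had 1827, 2039, 1958 and 1840 normalized counts in the Anesthesia mice and 1804, 1743, 1505 and 1791 in the Control mice. The lowest Anesthesia mouse was just above the highest Control mouse. The log2 fold change of Chrm1 was 0.17 (SE 0.07, 95% CI 0.01 to 0.33, limma adjusted p = 0.622). It was 0.11 without Control replicate 3, and 0.14 to 0.19 without any other mouse.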

How the data were processed

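Hippocampal RNA of 8 mice was sequenced on a NovaSeq instrument. The authors ran Salmon 1.1.0 against GRCm38 with GC bias correction, imported gene-level abundances with tximport and deposited counts divided by DESeq2 1.30.1 size factors (R 3.5.3), as also listed in the submitters' processing notes. The deposited values are thus a normalized signal (normalized counts), not read counts. The annotation release and the filter on low genes are not given in the sources used here. The labels name the TruSeq RNA Sample Prep Kit v2 and the study's methods name a stranded total RNA kit, so whether strand was used cannot be told. Low values were whole reads (within 0.1) in 50.5% to 73.1% of cases, so read counts were not recovered.

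Each column was matched to its mouse, and 0 columns were left without a sample. The groups were compared with limma 3.58.1 (R 4.3.3) with a mean-variance trend on log2(value + 1), over 18865 genes (mean of 10 or more), with no covariate and Benjamini-Hochberg adjustment over all genes (threshold 0.05). Fold changes on this scale understate the change of low genes. Symbols, positions and transcript lengths came from GENCODE M21, which held 20784 of 20802 identifiers. Shares and correlations were tested by exact permutation over the mice, with ranks from scipy 1.17.1. Confidence intervals are at 95% and cover the spread between mice. Pairs of libraries differed with an SD of 0.45 to 0.67 in their log2 ratios, so no library was a copy of another. The scripts were tested on simulated data.

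Genes named are the 7 channels, every other K2P gene found, the genes with an unadjusted p under 0.05 in each pathway list (at most 3, otherwise the 1 with the smallest p), the 2 genes with the highest r with each channel, and markers, of which 1 is not reported here. The 7 channels and all lists were chosen with earlier results of these data known. The alternatives were other pseudocounts, filters, scalings, limma variants, covariates, transcript lengths, a replicate block and leaving out each mouse.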

Additional observations from a re-analysis of the deposited data

Results flagged for a closer look

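Among 56 sets of 4 mice (each K2P gene, each share and each of 11 marker lists in each group), 2 held a mouse far from the other 3, where chance gives about 1 in 20 sets, or 2.8 in all. In the Anesthesia group Kcnk13 had 71.9 normalized counts in replicate 1 and 91.3 to 95.3 in the others, so that this gap took up 0.830 of the whole range. The share of Kcnk12 in the family was 3.61% in Anesthesia replicate 2 and 5.28% to 5.53% in the others, a gap of 0.871 of the range. Anesthesia replicate 2 is also the mouse with the highest Kcnk1, the highest dentate level and the lowest Kcnk3.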

How the results depend on the processing

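The count of 0 genes past the threshold held under all alternatives except without Control replicate 1, where it was 2 (0 to 2 with each mouse left out). The count at an unadjusted p under 0.05 was 948 with the correction for GC content and length together with the replicate block, 857 with the choroid plexus level as a covariate, and 1061 to 2024 with each mouse left out. Same-numbered mice correlated between -0.24 and 0.02. These values show no pairing by number but cannot exclude it, since mice of different number were not compared. The replicate block gave 0 genes past the threshold, 1084 at an unadjusted p under 0.05 and a median log2 fold change of the 7 channels of 0.13. That median was 0.09 to 0.22 with each mouse left out and 0.07 to 0.13 otherwise, apart from the filter at a mean of 100, which kept 5 of the 7 and gave 0.04. The fold changes of Kcnk2, Kcnk4, Kcnk9 and Kcnk12 kept their direction throughout, and the lowest adjusted p of the 7 was 0.519. Some small ones turned. With the neocortical level as a covariate, added after the data were seen, Kcnk9 was 0.098, Kcnk4 0.082 and Kcnk12 0.20, while Kcnk1 was 0.0022, Kcnk3 -0.10 and Kcnk6 -0.072, and with the choroid plexus level Kcnk6 was -0.090. With each mouse left out, Kcnk3 ran from -0.089 to 0.32, Kcnk10 from -0.027 to 0.10, Kcnk5 from -0.44 to 0.25 and Kcnk6 from -0.12 to 0.12, and the differences in share ran from -0.066 to 0.56 percentage points for Kcnk3 and from -0.18 to 0.32 for Kcnk10. The cause was not tested. With the mean coding length, Control shares were 61.1% for Kcnk1, 12.8% for Kcnk2, 7.72% for Kcnk10 and 7.50% for Kcnk9, so that Kcnk10 was above Kcnk9. For Kcnk3, Kcnk4 and Kcnk12, at about 100 normalized counts, counting error was estimated at 9.81% to 10.4%. With 4 mice a group, their intervals reached 1.51 to 1.65 times the Control level. The interval of Kcnk9, with an estimated counting error of 2.60%, reached 1.49 times the Control level. The part of counting error in these intervals was not tested.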

Other observations

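Other conductances active at rest were also examined. Of 14 such genes (the sodium leak channel complex, inward rectifier potassium channels and chloride channels), 0 had an unadjusted p under 0.05 (8.02% of all genes tested), 0 had groups that did not overlap (5.04%), and the median log2 fold change was 0.09, with 10 of 14 above 0 (49.2%). Unc80, a subunit of the sodium leak channel complex that opposes the potassium leak, had the smallest p. It had 9849, 10796, 11429 and 10744 normalized counts in the Anesthesia mice and 10206, 10332, 9591 and 9958 in the Control mice, with 3 Anesthesia mice above all Control mice. Its log2 fold change was 0.09 (SE 0.06, 95% CI -0.03 to 0.22, limma adjusted p = 0.676), and 0.02 to 0.13 over all alternatives.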
